A study of Rattus norvegicus with 12 samples.

Results

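A set of 10 genes that mark macrophages loaded with lipid or activated by ingested material was followed in the lungs of rats breathing clean air or an aerosol of crystalline nanocellulose (CNC), a material of very small cellulose crystals. The members were Gpnmb, Spp1, Trem2, Lgals3, Cd68, Cd9, Lpl, Plin2, Apoc1 and Fabp5, chosen by symbol, and all 10 had a row among the 30045 symbols of the deposited count table. The samples were pieces of whole lung from 12 male Fischer rats (F344/DuCrl), 3 months old when bought, with 6 rats per group and 1 RNA sequencing library per rat. The CNC rats breathed 20 mg/m3 in whole-body chambers for 6 hours a day and 5 days a week, for 14 days of exposure in all, and the air rats served as controls. Every lung was taken 1 day after exposure ended. Both groups shared strain, sex, supplier and housing of 3 rats per cage, and effects of the cage were not analysed here. Libraries held 8693259 to 16603697 counts, and the members are given as CPM, the counts relative to each library's total after TMM scaling.

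When macrophages take up particles, dying cells or surfactant lipid, they enlarge their lysosomes and store surplus fatty acids and cholesterol in droplets. Trem2 is a surface receptor for lipids and lipoproteins that signals through the adaptor Tyrobp, and macrophages in this state commonly carry Gpnmb, Spp1, Lgals3, Cd9, Lpl and Fabp5. In lung, alveolar macrophages clear surfactant, so they are rich in lipid even at rest, and several of the members are also made by other lung cells. In a piece of whole lung, more cells of a type and more RNA per cell cannot be told apart.

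The promoters of 3 members that rose, Gpnmb, Cd68 and Trem2, hold a TGANTCA sequence and are shown for that match. The promoter of Spp1, which rose most, is shown beside them because it holds none of the motifs searched. TGANTCA is a looser form of the AP-1 element, which has G or C in place of N. The matches of Gpnmb and Cd68 have G there (TGAGTCA), whereas that of Trem2 has A (TGAATCA) and is not the AP-1 element. The sequences are RefSeq's for the rat build GRCr8, from 250 bases before to 50 bases after the annotated start, all 5′ to 3′ in the direction of the gene. Capitals mark TGANTCA and, in Gpnmb, TCATGTG, the M-box letters read by MITF-type factors, which lie there on the opposite strand as CACATGA. The Gpnmb window is chr4:79340878-79341177 on the plus strand, and on the minus strand lie the windows of Cd68 at chr10:54882392-54882691, Trem2 at chr9:20151730-20152029 and Spp1 at chr14:5619755-5620054.
Gpnmb: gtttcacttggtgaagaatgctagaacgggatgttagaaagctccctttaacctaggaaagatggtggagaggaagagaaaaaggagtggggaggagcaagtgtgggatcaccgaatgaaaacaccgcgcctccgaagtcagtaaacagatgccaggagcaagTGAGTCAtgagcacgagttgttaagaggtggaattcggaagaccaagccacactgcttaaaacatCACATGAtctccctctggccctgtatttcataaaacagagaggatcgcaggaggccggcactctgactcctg
Cd68: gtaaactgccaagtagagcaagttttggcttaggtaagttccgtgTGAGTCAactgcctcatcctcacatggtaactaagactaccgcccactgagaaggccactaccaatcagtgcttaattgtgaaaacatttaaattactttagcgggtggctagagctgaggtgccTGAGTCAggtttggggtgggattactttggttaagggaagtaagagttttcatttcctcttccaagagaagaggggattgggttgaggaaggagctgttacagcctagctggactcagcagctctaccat
Trem2: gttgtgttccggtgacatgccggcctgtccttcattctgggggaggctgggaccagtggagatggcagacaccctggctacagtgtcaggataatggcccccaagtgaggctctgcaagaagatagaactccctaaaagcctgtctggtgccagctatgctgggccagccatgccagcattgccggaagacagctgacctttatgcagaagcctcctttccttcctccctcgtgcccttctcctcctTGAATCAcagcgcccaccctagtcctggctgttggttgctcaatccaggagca
Spp1: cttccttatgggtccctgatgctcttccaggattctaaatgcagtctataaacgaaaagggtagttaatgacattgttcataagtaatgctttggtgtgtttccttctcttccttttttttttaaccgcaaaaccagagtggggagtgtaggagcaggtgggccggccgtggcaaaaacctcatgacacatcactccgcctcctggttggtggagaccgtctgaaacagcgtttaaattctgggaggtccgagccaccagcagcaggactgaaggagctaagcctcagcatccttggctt

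Counted in bases from the annotated start, the TGANTCA match of Gpnmb begins at -87 and its M-box match at -22. Cd68 has TGANTCA matches beginning at -205 and -80, and Trem2 has 1 beginning at -3. Promoter windows were found for 7 of the 10 members (Gpnmb, Spp1, Trem2, Cd68, Cd9, Plin2 and Apoc1) and not used for Lgals3, Lpl and Fabp5. Plin2 and Apoc1 had more than 1 window each, so there were 9 in all. A member was counted if any of its windows held the motif, whereas the shares below are per window. Searched on both strands, TGANTCA was in 3 of the 7 members and in 7.33% of 33469 windows of 300 bases. TCATGTG was in 1 member against 3.56% of windows, and the E-box CACGTG was in 1, Plin2, against 6.42%. Only 1 of the Plin2 windows held it. The PPAR response element, searched as an exact direct repeat, was in 0 of the 7 and in 0.0538% of windows. None of these motifs overlapped another in the member windows, and a match of letters shows no binding.

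Of the 10 members 7 rose in the CNC rats. These were Spp1, Lgals3, Fabp5, Gpnmb, Cd68 and Trem2, by 1.87- to 2.81-fold, and Lpl by 1.15-fold. Plin2 and Cd9 did not pass the test, and Apoc1 was too scarce to be tested. Among all 15019 genes tested, 13.2% rose by the same rule, edgeR's quasi-likelihood test with a Benjamini-Hochberg adjusted p under 0.05. Of the 9 tested members 5 rose at least 2-fold, against 0.945% of tested genes. The median log2 fold change was 1.02 over the 9 tested members and -0.0026 over all tested genes. The members are a chosen set, so these counts are a description and no test of the list.

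**Figure D1:**
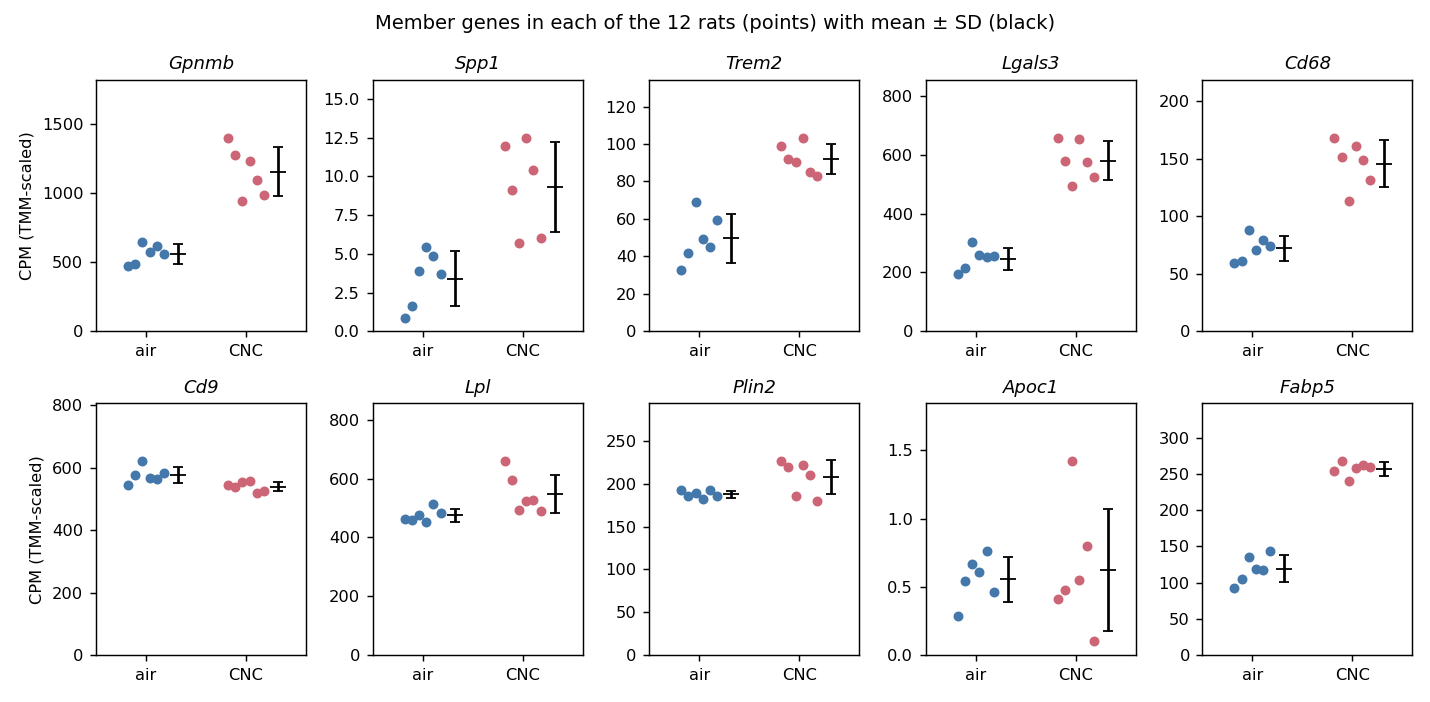
CPM (vertical axis, from 0, with its own scale in each panel) of the 10 member genes in the 6 air and 6 CNC rats, 1 point per rat, with the group mean ± SD in black. In 6 genes (Gpnmb, Spp1, Trem2, Lgals3, Cd68 and Fabp5) the lowest CNC rat lies above the highest air rat, whereas Cd9, Lpl, Plin2 and Apoc1 overlap.

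Both genes for lysosomal membrane proteins rose, by 2.07-fold for Gpnmb and 2.03-fold for Cd68. Gpnmb encodes a transmembrane glycoprotein of lysosomes and melanosome-like organelles. In air its CPM had a low of 469, a median of 566 and a high of 645.7, and in CNC a low of 944, a median of 1159.7 and a high of 1399. All 6 CNC rats therefore lay above all 6 air rats. The means were 558 ± 69.3 and 1154 ± 178 CPM (here and for other genes mean ± SD, n = 6 in each group), with a log2 fold change of 1.05 ± 0.10 SE (adjusted p = 3.15e-06 by edgeR). Cd68, a heavily glycosylated protein of macrophage lysosomes, ran from 58.9 through a median of 72.3 to 88.2 CPM in air and from 113 through 150.3 to 168 CPM in CNC. The groups again did not overlap, and Cd68 rose by 1.02 ± 0.10 SE on the log2 scale (adjusted p = 6.05e-06 by edgeR). Such a gap between groups, with CNC higher, was found in 6 of the 10 members and in 6.82% of tested genes.

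Trem2, the lipid receptor, stood at 32.6, 47.3 and 69.1 CPM (low, median and high) in air and at 82.7, 91.1 and 103 CPM in CNC. Its log2 fold change was 0.91 ± 0.13 SE (adjusted p = 0.00013 by edgeR). The air rats differed among themselves more than the CNC rats did, with coefficients of variation of 26.3% and 8.62%. Cd9, a tetraspanin that organises receptors in the membrane and is also abundant in platelets and endothelium, went the other way by a small amount. It had 545, 572 and 619.9 CPM in air and 518, 542 and 556 CPM in CNC, with overlapping groups. Its log2 difference of -0.10 ± 0.03 SE did not pass (adjusted p = 0.0554 by edgeR). The Cd9 difference did pass, still as lower in CNC, with library size alone (adjusted p = 0.0143 by edgeR), upper-quartile scaling (adjusted p = 0.0316 by edgeR), the DESeq2 Wald test (adjusted p = 0.0185) and limma-voom (adjusted p = 0.0493). These settings called 14.3%, 13.1%, 11.5% and 11.4% of genes lower.

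Of the secreted members Lgals3 and Spp1 rose and Apoc1 could not be judged. Lgals3, a galectin that binds glycans on damaged membranes and on phagocytosed material, had 196, 253 and 303 CPM (low, median and high) in air and 492, 577 and 658 CPM in CNC. It rose by 1.24 ± 0.10 SE on the log2 scale (adjusted p = 6.82e-07 by edgeR), and no CNC rat fell within the air range. Spp1, the secreted matrix protein osteopontin, was scarce in this tissue, with 12 to 182 counts per library. Its CPM were 0.864, 3.81 and 5.42 in air and 5.68, 9.79 and 12.5 in CNC, so that the highest air rat lay just under the lowest CNC rat. Spp1 rose by 1.49 ± 0.33 SE on the log2 scale (adjusted p = 0.00355 by edgeR). Its spread was wide in both groups, with coefficients of variation of 52.9% in air and 31.3% in CNC. Apoc1, a small apolipoprotein, had 1 to 20 counts per library, with 41 counts summed over air and 50 over CNC. It failed the count filter, and tested without the filter its log2 fold change was 0.22 ± 0.41 SE (adjusted p = 0.777 by edgeR), so that no change was detectable at this depth.

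The lipid-handling members separated. Fabp5, a cytosolic carrier of fatty acids that is made by macrophages and type 2 cells, had 92.9, 118 and 144 CPM (low, median and high) in air and 241, 258 and 267 CPM in CNC. It rose by 1.12 ± 0.08 SE on the log2 scale (adjusted p = 3.61e-07 by edgeR). The CNC rats were close to each other for Fabp5, with a coefficient of variation of 3.55% against 15.8% in air. Lpl, the enzyme that frees fatty acids from lipoproteins, had 453, 471 and 515.5 CPM in air and 491, 526.2 and 659 CPM in CNC. For Lpl 4 of the 6 CNC rats lay above every air rat, and the log2 fold change of 0.21 ± 0.06 SE passed narrowly (adjusted p = 0.0287 by edgeR). The Lpl call was lost without air replicate 1, 2 or 4 or CNC replicate 1 or 2 in turn (highest adjusted p = 0.0685 by edgeR, without CNC replicate 2). Plin2, the coat protein of lipid droplets, had 182, 187 and 193 CPM in air and 179, 215 and 226 CPM in CNC. Its log2 difference was 0.14 ± 0.05 SE (adjusted p = 0.0593 by edgeR), which did not pass. For Plin2 4 CNC rats lay above the air range, 1 was within it and CNC replicate 6 was below it. Left out singly, CNC replicate 3 or CNC replicate 6 made the Plin2 difference pass (adjusted p = 0.0212 and 0.0101 by edgeR). These 2 rats had the lowest Plin2 values of their group, so their removal is no support for a change. The spread of both genes was wider in CNC than in air, at 9.6% against 2.28% for Plin2 and 12% against 4.74% for Lpl, a difference that was not tested.

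Markers of several cell types moved along with the members, and their part in the results above was not tested unless stated. Over all tested genes 13.2% rose and 11.4% fell. Of 15 alveolar macrophage markers tested 8 rose (among them Plet1, Bhlhe41, Itgax and Msr1) and 2 fell, Car4 and Fabp4. Bhlhe41 is also among the clock genes used below. The summed level of the list was 1085 to 1213 CPM in air and 1328 to 1833 CPM in CNC. Marco, a defining alveolar macrophage marker, is listed at 0 in all 12 libraries. Since the annotation used in counting is unknown, that 0 sets no limit on its expression. Of 18 monocyte and interstitial macrophage markers 8 rose, Cd74, Cd14, Itgam and C1qb among them, and 3 fell (2242 to 2529 CPM in air, 2675 to 3113 CPM in CNC). Among general leukocyte genes 9 of 11 rose, led by Spi1, Lcp1, Laptm5 and Tyrobp (1735 to 2042 CPM in air, 2270.0 to 2693 CPM in CNC), and 7 of 12 neutrophil markers, led by Il1r2 and S100a9, while 1 fell (176 to 282 CPM in air, 451 to 712 CPM in CNC). Type 2 cell markers, which matter for Fabp5, rose in 10 of 13 with 1 lower (24559 to 32026 CPM in air, 32556 to 39684 CPM in CNC). For Cd9, the platelet markers summed to 52.7 to 64.1 CPM in air and 63.2 to 86.8 CPM in CNC, with Pf4 the only one of 6 that rose and Gp1bb at 0 counts, while 11 of 12 endothelial markers fell (6254 to 7208 CPM in air, 5233 to 5819.7 CPM in CNC). For Lpl and Plin2, fibroblast markers including those of lipid-storing fibroblasts rose in 1 of 10 and fell in 6 (3494 to 4034 CPM in air, 3082 to 3380.4 CPM in CNC), and adipocyte markers rose in 1 of 4 and fell in 2 (123 to 148 CPM in air, 87.5 to 105 CPM in CNC). Of 6 red cell markers 5 fell, Alas2, Hba1, Hbb-b1 and Hbb among them, and 0 rose (2524 to 3259 CPM in air, 1717 to 2304 CPM in CNC). Heart muscle markers, relevant because heart is rich in Lpl, fell in 1 of 10 with 0 higher and ran from 17.6 to 443 CPM in air and from 16.4 to 131 CPM in CNC. With the heart muscle level as a covariate Lpl kept its call, at a log2 fold change of 0.20 ± 0.07 SE (adjusted p = 0.0448 by edgeR).

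Relative to macrophage and leukocyte genes the members fell into 2 sets. The mean log2 CPM of the alveolar macrophage markers was 5.17 to 5.37 in air and 5.25 to 5.80 in CNC, 0.26 higher in CNC (2-sided exact permutation test, p = 0.0281). When each library was scaled to that mean, the median log2 fold change of all genes shifted to -0.26, and 2.74% of genes were called higher and 41.7% lower in CNC. Before scaling, the log2 fold changes of these markers ran from -0.88 ± 0.32 SE for Cidec, which was not called, to 0.98 ± 0.10 SE for Bhlhe41. Plet1, at 0.97, and Bhlhe41 were near Trem2, at 0.91, and Cd68, at 1.02. Whether any member rose beyond the number of alveolar macrophages was not tested. On the alveolar macrophage scale Gpnmb, Spp1, Trem2, Lgals3, Cd68 and Fabp5 were still called higher. Their log2 fold changes ran from 0.63 ± 0.13 SE for Trem2 (adjusted p = 0.000832 by edgeR) to 1.20 ± 0.25 SE for Spp1 (adjusted p = 0.00103 by edgeR). Lpl and Plin2 turned to -0.06 ± 0.09 SE and -0.12 ± 0.09 SE (adjusted p = 0.553 and 0.226 by edgeR), and Cd9 was lower by a called -0.35 ± 0.10 SE (adjusted p = 0.00883 by edgeR). Scaled instead to the general leukocyte genes, which moved the median of all genes to -0.38 and called 2.38% of genes higher and 76.0% lower, the same 6 were again called higher, by 0.52 to 1.11. On the leukocyte scale Lpl, Plin2 and Cd9 were all called lower, at -0.18, -0.24 and -0.47 (adjusted p = 0.0304, 0.00161 and 8.98e-06 by edgeR). In 5 of the 6 CNC rats the alveolar macrophage mean was above that of every air rat, while in CNC replicate 6, at 5.25, it was under that of 5 air rats. The 2 measures of this list differ for that rat. By summed CPM all 6 CNC rats, CNC replicate 6 included, lay above every air rat (1328 to 1833 against 1085 to 1213 CPM). The mean of log2 values weighs scarce and abundant markers alike. The leukocyte mean was above every air rat in all 6 CNC rats, at 7.23 in CNC replicate 6. That rat lay above every air rat in 6 members.

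**Figure D2:**
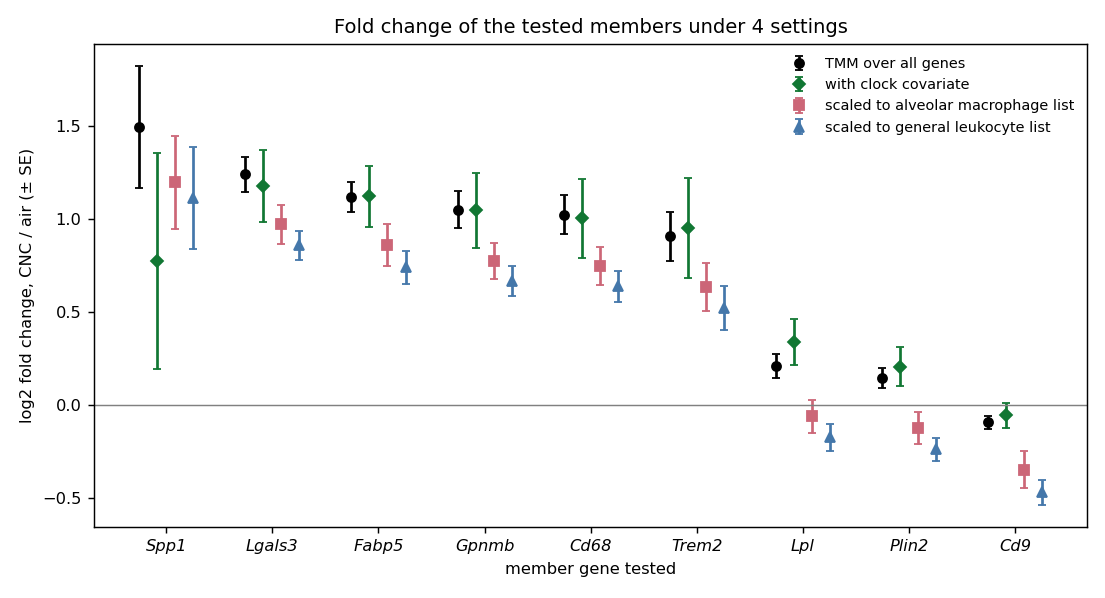
Log2 fold change of CNC over air (vertical axis, ± SE) for the 9 tested members under 4 settings, namely TMM over all genes (black circles), a clock gene covariate (green diamonds), and scaling to alveolar macrophage (red squares) or general leukocyte genes (blue triangles). Under both marker scalings 6 members stay above 0 and Lpl, Plin2 and Cd9 lie below it, and Spp1 has the widest errors.

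Circadian clock genes differed between the groups as well, with a clock score of -1.38 to 0.318 in air and 0.308 to 1.12 in CNC (2-sided exact permutation test, p = 0.00433). The clock score and exposure nearly coincide in these rats and cannot be told apart, and a fit with it as a covariate called 3.4% of genes higher. Gpnmb, Lgals3, Fabp5 and Cd68 kept their calls, with log2 fold changes of 1.04, 1.18, 1.12 and 1.00 (adjusted p from 0.00344 to 0.0169 by edgeR). The calls of Trem2 (0.95 ± 0.27 SE, adjusted p = 0.0546 by edgeR), Spp1 (0.77 ± 0.58 SE, adjusted p = 0.494 by edgeR) and Lpl (0.34 ± 0.12 SE, adjusted p = 0.125 by edgeR) were lost. The fitted value of Spp1 fell from 1.49 to 0.77 on the log2 scale, while those of Trem2 and Lpl were larger than without the covariate and their standard errors were larger too. Of the 82 list genes that the naming rule picks, which include clock genes of the score itself, 45 lost their call with this covariate. Over all tested genes 24.6% were called in either direction without the covariate and 5.43% with it.

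Most pairs of members were positively correlated from rat to rat within a group, though no single pair passed adjustment. The share of positive pairs among other genes was not computed, and pairs that share a gene are not independent. The counts of positive pairs are therefore a description. Of the 45 pairs of members 38 had a positive Pearson r in the 6 air rats, with a median r of 0.72 (rho 0.54), and 37 in the 6 CNC rats, with a median r of 0.50 (rho 0.43). Among the 15 pairs of the 6 members whose groups did not overlap, 15 were positive in air (0.72 to 0.99) and 14 in CNC. None of the 90 correlations passed adjustment over all 90 (smallest adjusted p = 0.0938, exact permutation over 720 pairings), and 24 had an unadjusted exact p under 0.05. The closest pair in air was Gpnmb with Cd68, with r = 0.99 and rho = 0.94 (n = 6, exact permutation p = 0.00278, adjusted p = 0.0938), and in CNC the pair Spp1 and Lgals3 reached r = 0.96 and rho = 0.89 (n = 6, exact permutation p = 0.00833, adjusted p = 0.0938). Lgals3 and Cd68 ranked the 6 CNC rats identically (rho = 1, n = 6, exact permutation p = 0.00278), with r = 0.96 (exact permutation p = 0.00139, the smallest that 6 rats can give, adjusted p = 0.0938).

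**Figure D3:**
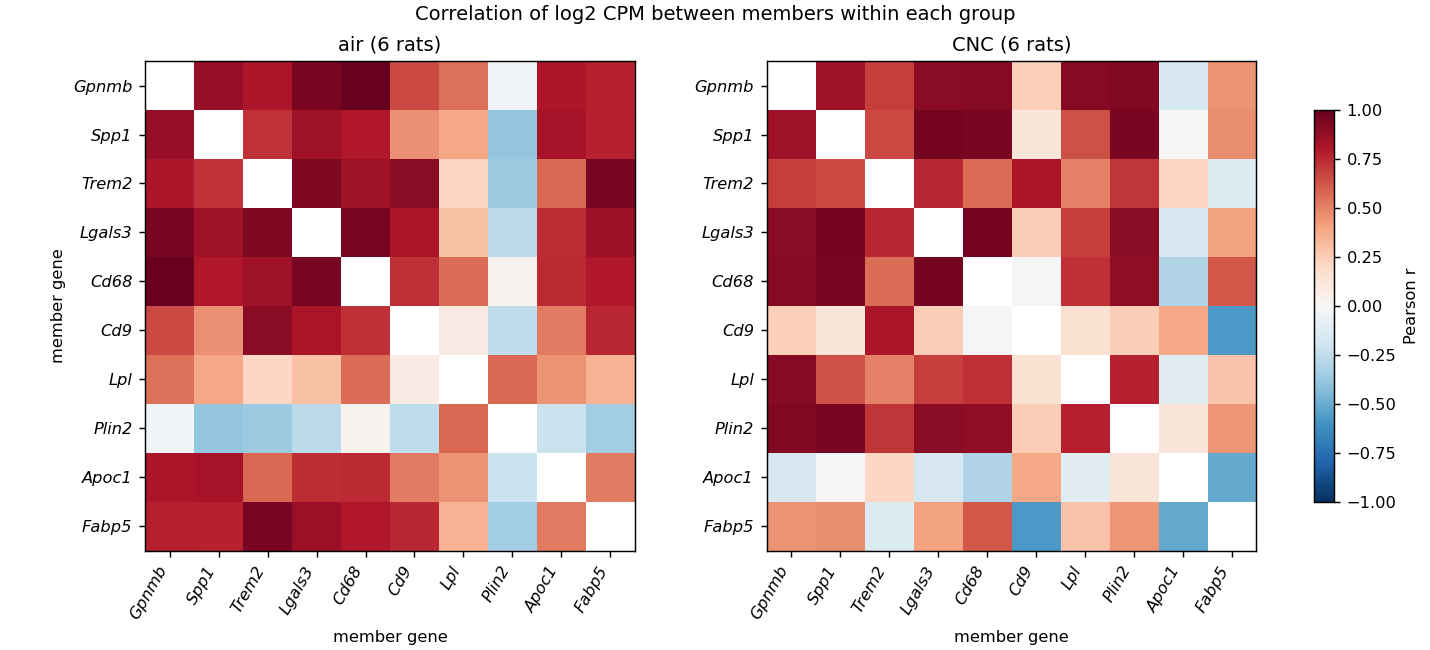
Pearson r of log2 CPM between each pair of the 10 members (both axes) in the 6 air rats on the left and the 6 CNC rats on the right, with colour from blue (-1) to red (1) and the diagonal left blank. Plin2 is pale or blue against most members in air and red in CNC, and Apoc1 is mostly red in air and mostly pale or blue in CNC.

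The same rats were often at the extremes of their group. Air replicate 1 had the lowest value of its group in 8 of the 10 members, and air replicate 3 the highest in 5. With the 2 rats farthest from the median of each pair's first gene left out, 26 of the 45 air pairs were positive. The median r was then 0.29, over 4 rats with a narrower range. In CNC 32 pairs were positive with a median r of 0.56. Both counts include pairs that were negative over all 6 rats, such as Gpnmb with Plin2 in air and Gpnmb with Apoc1 in CNC. CNC replicate 1 had the highest value in 5 members and CNC replicate 4 in 3, while CNC replicate 3 had the lowest in 5 and CNC replicate 6 in 4. For Plin2 the values differed by group. Its r with Gpnmb was 0.93 in CNC (rho 0.89, n = 6, exact permutation p = 0.00694, adjusted p = 0.0938) and -0.03 in air (rho -0.09, n = 6, exact permutation p = 0.953, adjusted p = 0.974), a difference that was not tested. Fabp5 had r = 0.95 with Trem2 in air (rho 0.94, n = 6, exact permutation p = 0.00694, adjusted p = 0.0938) and had r = -0.14 with it in CNC (rho -0.26, n = 6, exact permutation p = 0.814, adjusted p = 0.874).

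**Figure D4:**
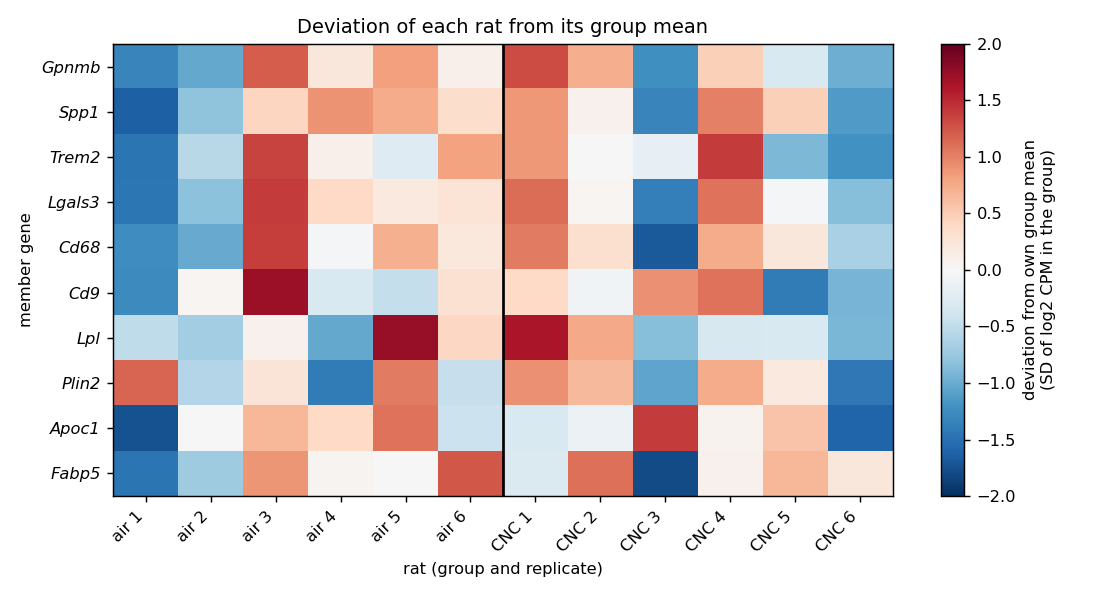
Deviation of each rat (horizontal axis) from the mean of its own group, in SD of log2 CPM within that group, for the 10 members (vertical axis), with blue below and red above the mean. Air replicate 1 is blue in every member but Plin2, and CNC replicates 3 and 6 are blue in most, whereas air replicate 3 and CNC replicates 1 and 4 are mostly red.

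The genes closest in pattern to the tested members were taken as the 8 highest by the lower of the 2 within-group values of r (n = 6 rats each) with the mean standardised level of the 9, out of 11144 genes. These were Vim, Anxa5, Hexa, Lgmn, Ifi30, Ctsd, Mcoln2 and Ctsz, with lower values of r from 0.96 for Vim to 0.93 for Ctsz. Hexa, Lgmn, Ifi30, Ctsd and Ctsz encode lysosomal enzymes and Mcoln2 a cation channel of endolysosomes, while Vim is an intermediate filament protein and Anxa5 binds phosphatidylserine. Vim, Anxa5, Ctsd and Ctsz also belong to the companion genes described next. This choice used no difference between groups, and Mcoln2 differed most by exposure, with a log2 fold change of 1.16 ± 0.12 SE (adjusted p = 6.23e-06 by edgeR). Anxa5 had 0.08 ± 0.05 SE and did not pass (adjusted p = 0.314 by edgeR).

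Many genes that accompany the members in lipid-associated macrophages rose as well. Of 28 tested 21 rose and 1 fell, with a median log2 fold change of 0.46, where 13.2% of all tested genes rose and 11.4% fell. Scaled to alveolar macrophage genes, which include Itgax, Msr1 and Axl of this list, 12 were higher and 2 lower, with a median of 0.20. On that scale 2.74% of all tested genes were higher and 41.7% lower. With the clock covariate 13 of the 28 were higher and 0 lower. Atp6v0d2, a subunit of the lysosomal proton pump, went from 6.47 ± 2.59 to 27.1 ± 3.88 CPM, and Capg, which caps actin filaments, from 61.4 ± 8.75 to 112 ± 9.47 CPM. Pld3, a lysosomal exonuclease, rose 1.56-fold and Cd63, a tetraspanin of late endosomes, 1.39-fold, while the cathepsin Ctsl fell 1.14-fold. The list of Trem2 signalling genes also holds the separate receptors Trem1, Treml2 and Trem3. Of its 18 genes 7 rose, Trem1 and Trem3 among them, and 1 fell, with a median of 0.07. On the alveolar macrophage scale 2 were higher and 4 lower (median -0.19), and with the clock covariate 3 were higher and 1 lower. The adaptor Tyrobp rose from 88.7 ± 5.72 to 119.7 ± 9.93 CPM, 1.35-fold, beside 1.87-fold for its receptor Trem2. Trem3 rose 1.79-fold, Card9 1.64-fold and Vav1 1.35-fold, and Vav3 fell 1.15-fold. The Vav3 call was lost without air replicate 2, 4, 5 or 6 or CNC replicate 2, 3, 4 or 5 in turn, without air replicates 4 and 5 together, and with the heart muscle covariate (adjusted p from 0.0506 to 0.105 by edgeR).

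Among receptors and processing enzymes of osteopontin, the Spp1 protein, 2 of 14 genes rose and 6 fell, with a median of -0.13. On the alveolar macrophage scale 1 was higher and 11 lower, and with the clock covariate 1 was higher and 0 lower. Over all tested genes 13.2% rose and 11.4% fell, and on the alveolar macrophage scale 2.74% were higher and 41.7% lower. Itgb8, an integrin chain that activates TGF-beta, rose from 13.9 ± 2.77 to 31.7 ± 4.29 CPM and the hyaluronan and osteopontin receptor Cd44 from 263 ± 10.5 to 323 ± 35.5 CPM. The integrin chains Itga8 and Itgb1 fell 1.14- and 1.10-fold. The next list joined the MiT/TFE factors, which switch on lysosomal genes, with nutrient sensing and lysosomal stress genes, and 5 of its 13 genes rose and 0 fell, with a median of 0.13. With library size alone 2 of the 13 were higher, with the clock covariate 2, and on the alveolar macrophage scale 1 was higher and 1 lower. Rragc, a lysosomal GTPase, rose 1.23-fold and the factor Tfec 1.61-fold from a low level (4.6 ± 1.02 to 7.4 ± 1.15 CPM). The autophagy receptor Sqstm1 and the hypoxia factor Hif1a, which are not MiT/TFE factors, each rose 1.09-fold. Sqstm1 lost its call without air replicates 4 and 5 together, without CNC replicates 3 and 6 together and with library size alone (adjusted p from 0.0513 to 0.108 by edgeR). Hif1a lost its call without air replicate 2, 3 or 4 or CNC replicate 1, 2, 5 or 6 in turn, without either of those pairs, and with upper-quartile scaling, library size alone or the heart muscle covariate (adjusted p from 0.0503 to 0.0962 by edgeR). Of 8 genes of other galectins, a galectin-like protein and a galectin 3 binding protein 1 rose and 1 fell, with a median of 0.0055. These counts are near the shares over all tested genes. The one that rose, 1.27-fold, was Lgals3bp, which binds galectin 3 and is no galectin itself, and the galectin-like Lgalsl fell 1.25-fold. On the alveolar macrophage scale 0 were higher and 4 lower, again near the shares over all tested genes. Of 12 tetraspanins and Cd9 partners 4 rose, led by Cd63, Cd53 (1.43-fold), Igsf8 (1.47-fold) and Cd82 (1.14-fold), and 5 fell, with a median of -0.04. On the alveolar macrophage scale 3 were higher and 6 lower, and with the clock covariate 1 was higher and 1 lower.

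**Figure D5:**
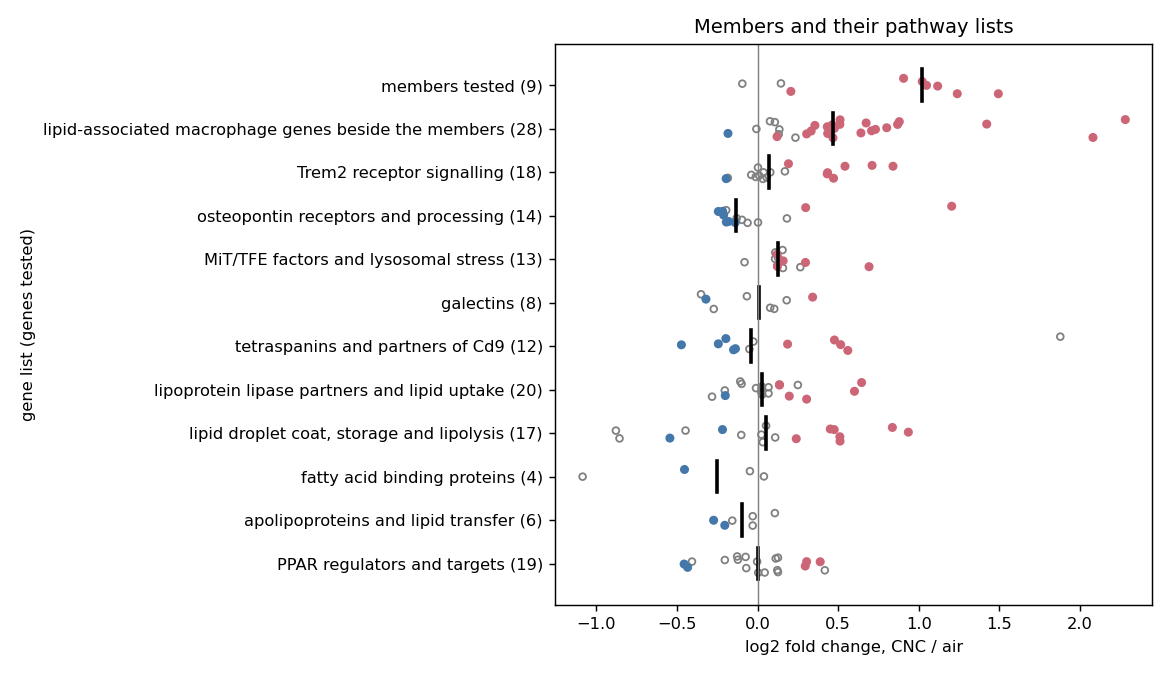
Log2 fold change of CNC over air (horizontal axis) for the 9 tested members and the tested genes of 11 lists under TMM scaling (rows, with the number tested in brackets), 1 point per gene, filled red or blue where called higher or lower and open where not called. Black bars are medians, at 1.02 for the members, 0.46 for their companions in lipid-associated macrophages and between -0.25 and 0.13 for the other lists.

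Genes of lipid uptake and storage changed in part. Of 20 partners of Lpl and lipid uptake genes 6 rose and 1 fell, with a median of 0.03. On the alveolar macrophage scale 2 were higher and 7 lower (median -0.23), and with the clock covariate 1 was higher and 0 lower. Over all tested genes 13.2% rose and 11.4% fell, and on the alveolar macrophage scale 2.74% were higher and 41.7% lower. The acyl-CoA synthetase Acsl4, which prefers arachidonate, rose from 192 ± 22.9 to 290.6 ± 30.3 CPM, the fatty acid receptor Cd36 1.23-fold, Acsl5 1.15-fold and the fatty acid transporter Slc27a2 1.56-fold, whereas the lipase maturation factor Lmf2 fell 1.15-fold. Of 17 genes of droplet coats, storage and lipolysis beside Plin2 7 rose and 2 fell, with a median of 0.05. On the alveolar macrophage scale 4 were higher and 5 lower (median -0.21), and with the clock covariate 5 were higher and 1 lower. Dgat2, which makes triglyceride, rose from 36.4 ± 1.98 to 64.8 ± 6.78 CPM. Lipa, the lysosomal acid lipase, rose 1.42-fold and Soat1, which esterifies cholesterol, 1.37-fold, while Lipe, the hormone-sensitive lipase, fell 1.46-fold. G0s2, an inhibitor of lipolysis, fell 1.16-fold, a call lost without air replicate 1, 2, 5 or 6 or CNC replicate 2, 4, 5 or 6 in turn and without CNC replicates 3 and 6 together (adjusted p from 0.0512 to 0.105 by edgeR).

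No tested relative of Fabp5 or Apoc1 on the lists was called higher, but only 4 of 11 and 6 of 15 in the count table were tested. Among all tested genes 13.2% rose and 11.4% fell, and on the alveolar macrophage scale 2.74% were higher and 41.7% lower. With so few relatives tested, 0 higher is near that share. Of 4 tested lipid binding proteins related to Fabp5 0 rose and 1 fell, with a median of -0.25, and on the alveolar macrophage scale 0 were higher and 2 lower. The one that fell was Fabp4, from 15.7 ± 2.37 to 11.4 ± 2.82 CPM, opposite to Fabp5. The Fabp4 call was lost without air replicate 1, 4 or 6 or CNC replicate 1, 3, 5 or 6 in turn, without air replicates 4 and 5 together and without CNC replicates 3 and 6 together (adjusted p from 0.0519 to 0.109 by edgeR). Of 6 tested apolipoprotein and lipid transfer genes 0 rose and 2 fell, Apol3 1.21-fold and the phospholipid transfer protein Pltp 1.15-fold, with a median of -0.09, and on the alveolar macrophage scale 0 were higher and 4 lower. Apoc4, of the same family as Apoc1, had 36 counts over air and 30 over CNC and was not tested. Of 19 PPAR regulators and target genes 3 rose and 2 fell, with a median of 0.0036, near the shares over all tested genes. On the alveolar macrophage scale 0 were higher and 9 lower (median -0.25), again near the shares over all tested genes. With the clock covariate 1 was higher and 1 lower. Pparg, a factor that sets the lipid programme of alveolar macrophages, rose from 13.3 ± 1.24 to 17.3 ± 3.45 CPM, a call lost without CNC replicate 1 or 2 in turn (adjusted p = 0.0566 and 0.0562 by edgeR).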

How the data were processed

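A lung piece from each of 12 rats was sequenced. Per the labels' protocols, total RNA went into a stranded mRNA kit with 12 cycles of PCR, so reads are not independent molecules and precision by depth covers counting error only. Trimmomatic 0.35, HISAT2 2.1.0, SAMtools 1.8 and HTSeq 0.11.2 appear in the submitters' processing notes, with no role stated. The authors deposited 1 table of raw, unnormalized counts by gene symbol, whose name holds Rnor6. No source used here gives its annotation or whether strand was used in counting, so overlapping and antisense genes are uncertain. Library totals are 8693259 to 16603697 counts.

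The test was edgeR 4.0.16 (quasi-likelihood, R 4.3.3) on TMM-scaled counts after filterByExpr (minimum count 10, minimum total 15), CNC against air, all 12 libraries, with Benjamini-Hochberg adjustment over 15019 genes and a threshold of 0.05. The procedure was tested on simulated data. SE is the size of the log2 fold change over the square root of F. Correlations use log2 CPM with a prior count of 2. The marker scalings set the mean log2 CPM of the alveolar macrophage or leukocyte genes, members left out, equal in all libraries. Genes of the other lists were not left out. Itgax, Msr1, Axl, Cidec, Fabp4 and Pparg are also among the alveolar macrophage genes, and Tyrobp and Cd53 among the leukocyte genes. The clock score averages standardised log2 CPM of clock genes, signed by their first principal component. Alternatives were other scalings, filters, tests (DESeq2 1.42.0, limma 3.58.1), covariates and left-out rats.

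The members, lists and tests were chosen with earlier results of these data known. Named were all members, from each list up to 4 called genes of smallest adjusted p and up to 2 of the direction with fewer calls (some are given only as counts or are not reported here), and 8 closest patterns among genes of at least 5 CPM.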

Additional observations from a re-analysis of the deposited data

How the results depend on the processing

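No paired analysis was possible because the groups are different rats and the labels name no pairing. Replicate numbers are not in the labels, and those used here follow the order of the samples. Gpnmb, Lgals3, Cd68 and Fabp5 kept their direction and call under all 26 alternatives each. With the clock covariate 815 genes changed (511 higher, 304 lower) and 4 members were higher, and Spp1 (0.77), Trem2 (0.95) and Lpl (0.34) lost their calls. Scaled to alveolar macrophage genes, 6682 genes changed (412 higher, 6270 lower), 1 member was lower, Cd9 (-0.35), and Lpl (-0.063) and Plin2 (-0.12) turned negative. Scaled to leukocyte genes, 11768 changed (357 higher, 11411 lower), and 3 members were lower, Cd9 (-0.47), Lpl (-0.18) and Plin2 (-0.24). These scalings subtract the rise of the markers by construction. Cd9 was the 1 member lower with upper-quartile scaling (-0.11), library size alone (-0.12), the DESeq2 Wald test (-0.10), limma-voom (-0.095) and without air replicates 4 and 5 (-0.11). Plin2 passed without CNC replicates 3 and 6 (0.22). The causes of the other shifts were not tested.

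Without each rat in turn, genes changed numbered 3091 to 3722 (1712 to 1998 higher, 1379 to 1726 lower), members higher 6 to 8 and members lower 0 to 1. The log2 fold changes ran from 0.99 to 1.10 for Gpnmb, 1.28 to 1.71 for Spp1, 0.81 to 1.03 for Trem2, 1.18 to 1.31 for Lgals3, 0.97 to 1.09 for Cd68, 1.06 to 1.18 for Fabp5, 0.15 to 0.24 for Lpl, 0.12 to 0.18 for Plin2 and -0.11 to -0.071 for Cd9, which passed without air replicate 1 (adjusted p = 0.0348 by edgeR). Of 82 list genes picked by the naming rule 10 lost their call under an alternative other than the clock covariate or marker scalings (Fabp4, Vav3, G0s2, Pparg, Sqstm1, Hif1a, Plac8, Ngp, Tusc5 and Kcnj3). Depth limits Apoc1, at 1 to 20 counts per library, and Spp1, at 12 to 182.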
